A study of Mus musculus with 4 samples.

Results

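Homeobox transcription factors of the Dlx, Msx, Prrx and Alx families were followed in hearts of mouse embryos at embryonic day 9.5 with or without a conditional knockout of Salvador (Sav1), a scaffold of the Hippo kinase cascade. The set held 9 genes, Dlx1, Dlx2, Dlx5, Dlx6, Msx1, Msx2, Prrx1, Prrx2 and Alx4, chosen by symbol in the platform's probe annotation, out of 16675 genes with a named probe. They were read by 11 of the 29922 probes, since Prrx1 and Alx4 had 2 probes each. RNA came from 2 Salv CKO pools, whole hearts with a conditional knockout of Salvador, and 2 control pools, labelled wild-type, all of a C57bl/6 x129 hybrid strain. Neither the driver of the conditional deletion nor the number of hearts per pool was stated in the sources used here. Each pool was amplified, labelled with Cy5 and hybridised to a one-colour array of its own. The study compared these pools to find genes under the control of the Hippo pathway while the heart forms.

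These families are best known for patterning the face, limbs and skull. Msx1 and Msx2 are repressors that bone morphogenetic protein (BMP) signals switch on in many embryonic tissues, the outflow and cushion mesenchyme of the heart among them. Prrx1 and Prrx2 mark mesenchyme of the limb buds and pharyngeal arches, and Alx4 acts in facial and limb mesenchyme. The Dlx genes lie in neighbouring pairs and give the pharyngeal arches their upper and lower identity, and Dlx1 and Dlx2 also act in forebrain neurons. In the early heart region, crest cells and arch mesenchyme next to the outflow tract are known to carry Dlx and Prrx transcripts.

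None of the 9 genes passed the test between Salv CKO and control (limma, two-sided, Benjamini-Hochberg over 16675 genes, threshold 0.05), and their lowest adjusted p was 0.0557. Over all genes, 10.6% were called, 4.92% higher and 5.7% lower in Salv CKO. At an unadjusted p under 0.05 stood 3 of the 9 members (Dlx1, Msx2 and Prrx1), beside 26.7% of all genes. Dlx1 was read above background in both Salv CKO pools and in neither control pool. The other members above background on all 4 arrays, 7 in number, differed by between -0.26 and 0.49 on the log2 scale. With 2 pools a group an exact permutation test of a single gene cannot give a p below 0.333. Each p therefore sets the difference against a spread that joins the scatter between these pools with limma's estimate from many genes.

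RefSeq promoters (GRCm38.p6, 250 bases before to 50 after the gene's start, printed on the gene's strand) were held for 6 of the 9 members. They are shown for the 3 genes of lowest p and for Dlx2, the neighbour of Dlx1. Capitals mark TAATTA, the palindromic core that Dlx, Msx and Prrx homeodomains bind, and GGAATG or its reverse complement CATTCC, the core of sites bound by the Tead partners of Yap, the coactivator that the Hippo pathway restrains. Both strands were searched. In order they are chr2:71529195-71529494 (plus strand), chr2:71546705-71547004 (minus), chr13:53472731-53473030 (minus) and chr1:163313601-163313900 (minus).
Dlx1: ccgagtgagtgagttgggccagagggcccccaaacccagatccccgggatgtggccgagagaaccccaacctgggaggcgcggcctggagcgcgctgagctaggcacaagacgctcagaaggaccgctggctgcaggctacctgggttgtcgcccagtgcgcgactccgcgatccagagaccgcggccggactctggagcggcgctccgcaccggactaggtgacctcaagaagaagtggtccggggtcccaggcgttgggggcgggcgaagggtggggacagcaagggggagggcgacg
Dlx2: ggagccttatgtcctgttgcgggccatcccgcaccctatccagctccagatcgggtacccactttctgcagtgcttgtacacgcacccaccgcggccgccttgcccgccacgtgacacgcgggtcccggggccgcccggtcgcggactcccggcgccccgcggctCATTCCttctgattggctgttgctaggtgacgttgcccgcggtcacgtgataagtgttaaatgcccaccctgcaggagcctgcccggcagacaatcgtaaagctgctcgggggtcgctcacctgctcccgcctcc
Msx2: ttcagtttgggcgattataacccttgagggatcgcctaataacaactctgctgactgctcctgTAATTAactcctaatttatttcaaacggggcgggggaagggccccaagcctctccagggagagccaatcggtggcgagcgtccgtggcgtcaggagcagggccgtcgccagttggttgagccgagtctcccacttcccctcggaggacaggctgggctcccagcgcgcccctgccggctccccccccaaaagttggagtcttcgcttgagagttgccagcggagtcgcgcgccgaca
Prrx1: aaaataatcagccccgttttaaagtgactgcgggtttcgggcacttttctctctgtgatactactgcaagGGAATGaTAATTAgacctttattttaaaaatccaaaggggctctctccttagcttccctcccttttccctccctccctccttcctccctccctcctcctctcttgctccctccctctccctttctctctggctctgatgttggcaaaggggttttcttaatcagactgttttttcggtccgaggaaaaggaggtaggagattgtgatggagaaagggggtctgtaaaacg

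TAATTA stood in 2 of the 6 promoters, those of Msx2 and Prrx1, beginning 187 and 173 bases before the start. It was present in 5.29% of the 32851 RefSeq mouse promoters of 300 bases. The Tead core stood in the promoters of Prrx1 and Dlx2, beginning 180 and 85 bases before the start, and in 14.7% of all promoters. In Prrx1 the GGAATG and the TAATTA are set apart by a single base. Such matches are letters in a window and do not show binding.

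**Figure D1:**
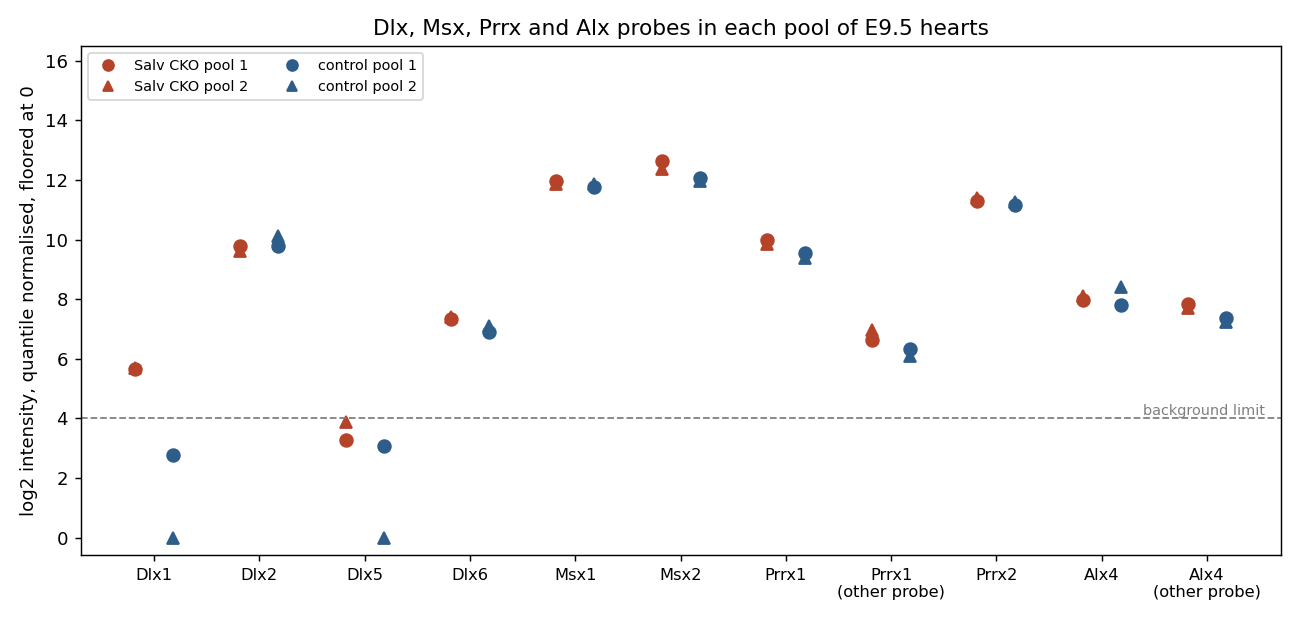
Log2 intensity after quantile normalisation (y axis, floored at 0) of the 11 probes of the 9 genes (x axis) in Salv CKO pools (red) and control pools (blue), 1 point per pool. Dlx1 lies above the background limit in the Salv CKO pools alone, Dlx5 lies below it in all pools, and the other probes lie above it throughout.

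Intensities below are after quantile normalisation, differences are log2 Salv CKO minus control with the standard error from limma, and a probe counted as above background over an intensity of 16. Msx2 was read at 6352 and 5342 in the Salv CKO pools, against 4319.6 and 3991 in the control pools. Both Salv CKO pools lay above both controls. The mean was 12.51 ± 0.18 in Salv CKO and 12.02 ± 0.08 in control (log2, SD, n = 2 each), a difference of 0.49 ± 0.11. It did not pass the test (adjusted p = 0.0557, 95% interval 0.21 to 0.77). Without the genes of mean intensity at or under 16 it passed (adjusted p = 0.0212), as did Prrx1 and Dlx1, when 19.5% of the remaining 13516 genes were called. Dlx1 met this filter only through its Salv CKO pools, since both of its control values were under 16. With the values as deposited, where the median gene above background was itself at -0.44, the difference was -0.03.

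Msx1, the close relative of Msx2, was read at 4041 and 3761 in Salv CKO and at 3490.5 and 3772 in control. The lower Salv CKO pool lay just under the higher control, so the groups overlapped. The difference was 0.10 ± 0.08 (adjusted p = 0.491), with a 95% interval of 0.929-fold to 1.24-fold. Its sign depended on the scaling, at -0.04 for median-centred arrays, -0.01 for arrays divided by the 75th percentile and -0.42 for the deposited values.

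Genes of the BMP response, the signal that induces Msx genes, did not share a direction: of 10 listed and measured, 2 rose and 1 fell, with a median difference of 0.02 against -0.04 over all genes. With the values as deposited the median was -0.29, and 0 rose and 2 fell. Id3, an inhibitor of bHLH factors, was read at 54259 and 50780.0 in Salv CKO, against 34118 and 29507 in control (difference 0.73 ± 0.09, adjusted p = 0.017). Its relative Id1 rose by 0.37 ± 0.06 (adjusted p = 0.0276). Smad6, an inhibitor that the pathway induces against itself, fell by 0.60 (SE 0.10, adjusted p = 0.0314).

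Prrx1 was read at 1007 and 928 in the Salv CKO pools and at 754 and 672 in the controls on its brighter probe, and the groups did not overlap. The means were 9.92 ± 0.08 and 9.48 ± 0.12 (log2, SD, n = 2 each) in Salv CKO and control. The difference of 0.44 ± 0.11 missed the threshold (adjusted p = 0.0723, 95% interval 0.16 to 0.72), and was -0.03 with the values as deposited. The dimmer probe read 98.3 and 125 in Salv CKO, against 79.6 and 68.7 in control, a difference of 0.58 ± 0.25 in a fit over all 29922 probes (adjusted p = 0.278). Both probes thus placed both Salv CKO pools above both controls after quantile normalisation. As deposited, the groups overlapped on both probes. The brighter probe stood at 826 and 783 in Salv CKO, against 803 and 846 in control. The dimmer one stood at 84.7 and 114, against 74.8 and 88.7.

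Prrx2, which overlaps with Prrx1 in function, was read at 2509 and 2676 in Salv CKO and at 2293 and 2467 in control. The groups were apart by a narrow margin. The difference was 0.12 ± 0.08 (adjusted p = 0.418, 95% interval 0.941-fold to 1.26-fold), and was -0.38 with the values as deposited.

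The probes of Alx4 disagreed. The brighter one read 249 and 274 in Salv CKO, inside the 221 and 342 of the controls, with a difference of -0.08 ± 0.25 (adjusted p = 0.878). The control pools differed there by 0.63 (log2), more than for any other member above background, and without control pool 2 the difference was 0.23. The other probe read 229 and 208 in Salv CKO, above the 164 and 152 of the controls, with a difference of 0.47 ± 0.16 in the fit over all probes (adjusted p = 0.179). No direction can be given for Alx4.

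**Figure D2:**
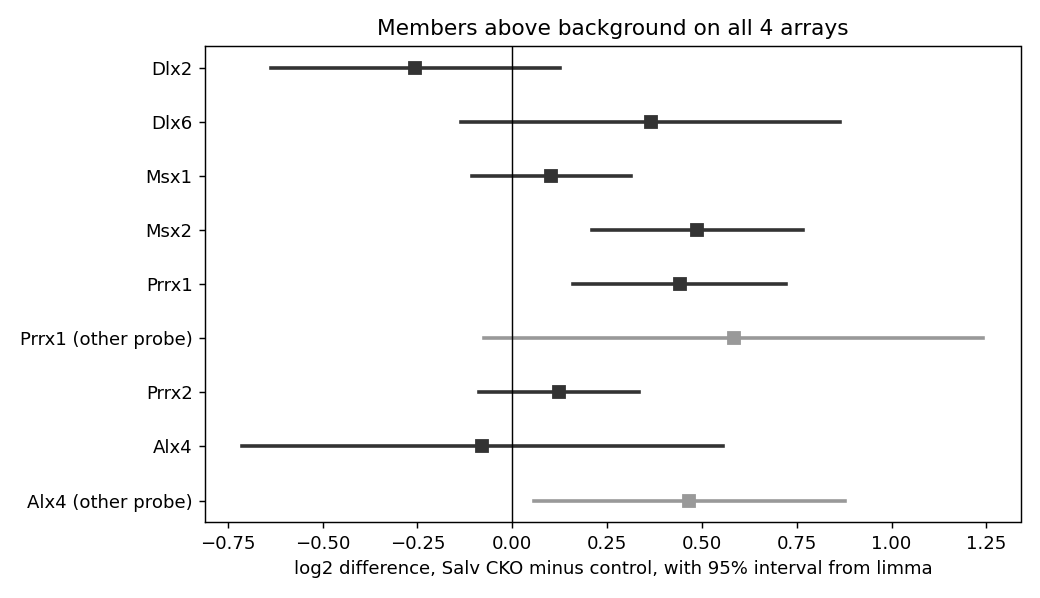
Log2 difference, Salv CKO minus control (x axis), of the 7 members above background on all 4 arrays, with 95% intervals from limma. Black squares are the brightest probe of a gene and grey squares the other probes, from the fit over all probes. The intervals of Msx2, Prrx1 and the other Alx4 probe lie above 0 before adjustment, and no adjusted p is under 0.05.

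Dlx1 and Dlx2 are neighbouring genes on chromosome 2. Dlx1 was read at 50.3 and 52.2 in the Salv CKO pools and at 6.79 and -2.34 in the controls. Both control values were not above background, so only a bound for these pools can be given. In them Dlx1 was on average at least 3.20-fold higher in Salv CKO, set against the background limit in each control. This bound carries no sampling error. The 95% interval from limma, which rests on control values under the background limit, was 3.08-fold to 125-fold. Among all genes, 0.972% (162) were above background in both Salv CKO pools and neither control pool. The fit gave an adjusted p of 0.0679, with control values that differed by 2.76 (log2) at the floor, and 0.0262 to 1 over the 13 alternatives, of which 5 passed. The Salv CKO values were themselves dim, and with a floor of 64 all 4 pools were equal. Among the alternatives that passed was the filter on mean intensity, which Dlx1 met only through its Salv CKO pools.

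Dlx2, the neighbour, was read at 878 and 779 in Salv CKO and at 879 and 1109 in control. The higher Salv CKO pool and the lower control were nearly equal. The difference was -0.26 ± 0.15 (adjusted p = 0.356), with a 95% interval of -0.64 to 0.13. It lay below 0 under each of the 4 scalings. The 2 genes were not tested against each other.

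Dlx5 and Dlx6 form a second pair, on chromosome 6, which endothelin signals switch on in the lower jaw arch. Dlx5 was read at 9.68 and 14.7 in Salv CKO and at 8.47 and 0.299 in control, below the background limit in every pool, so no fold is given. Dlx6 was read at 161 and 168 in Salv CKO, against 118 and 138 in control. Its groups did not overlap, and the difference of 0.37 ± 0.19 did not pass (adjusted p = 0.315, 95% interval -0.13 to 0.87). As deposited, Dlx6 stood at 137 and 151 in Salv CKO, against 117 and 172 in control. There the groups overlapped, with a difference of 0.03 (adjusted p = 0.964).

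In all, after quantile normalisation both Salv CKO pools lay above both controls for 6 of the 9 members and below them for 1, Dlx2. The shares of all genes were 25.2% and 29%. Dlx5, below background throughout, is among the 6. As deposited, both Salv CKO pools lay above both controls for Dlx1 and Dlx5 alone. They lay below both for Dlx2, Msx1 and Prrx2, and the main probes of the other members overlapped. Shares of all genes were not counted for the deposited values. The median fitted difference was 0.37 over the 9 members, and 0.12 with Dlx1 at its bound and Dlx5 at 0, against -0.04 over the 16675 genes. The members were not drawn at random, so this is a description of these probes. The sign for Msx1, Msx2, Prrx1 and Prrx2 depended on the scaling of the arrays, being below 0 with the values as deposited, while Dlx2 and the brighter Alx4 probe were below 0 under all 4 scalings. Relative to the median gene above background, Msx2 lay 0.42 to 0.53 above it under the 4 scalings, Prrx1 0.41 to 0.48 above and Dlx6 0.41 to 0.47 above. In the same terms Prrx2 was at 0.07 to 0.16, Msx1 at 0.02 to 0.15, Alx4 at -0.04 to -0.02 and Dlx2 at -0.28 to -0.21. All scalings but the quantile one differ only by a factor per array, which drops out relative to the median. They give these probes nearly the same value by construction, so their likeness is no separate check.

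**Figure D3:**
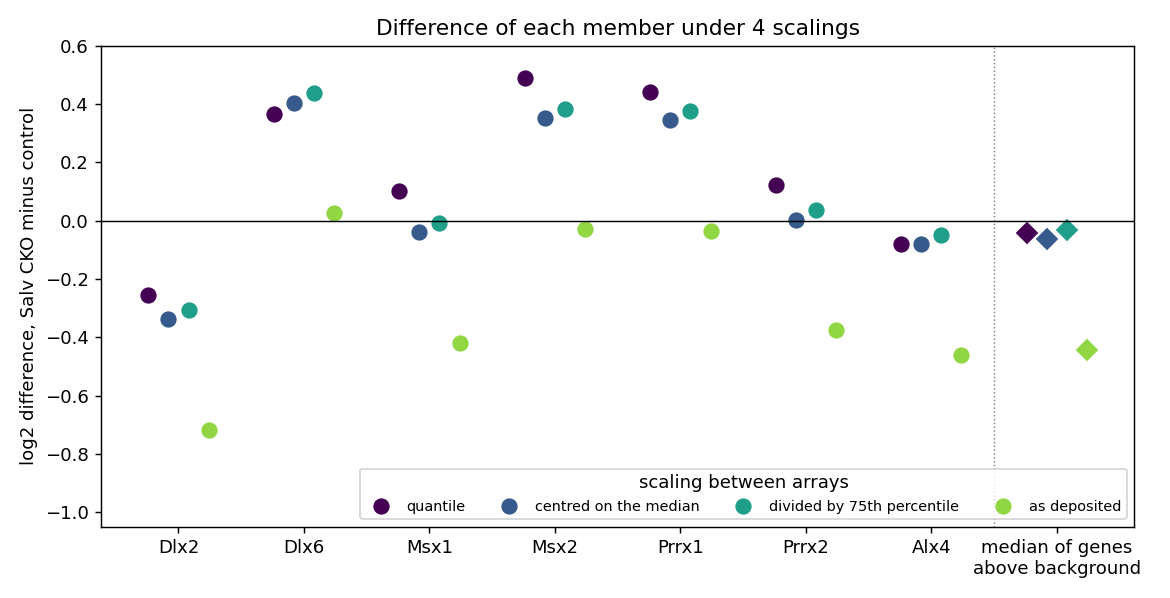
Log2 difference, Salv CKO minus control (y axis), of the 7 members above background on all 4 arrays under 4 scalings between arrays (colours). Diamonds give the median of all genes above background, which is -0.44 with the values as deposited and -0.06 to -0.03 under the other scalings.

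The arch genes that act around these factors went both ways, with 2 of 20 measured that rose and 3 that fell (2 and 4 with the values as deposited). Barx1, a homeobox gene of the jaw arch, was read at 307 and 296 in Salv CKO, against 82.2 and 105 in control (1.70 ± 0.20, adjusted p = 0.0146). Tbx1, the T-box gene of the pharynx and outflow progenitors, rose by 1.44 ± 0.14 (adjusted p = 0.0104). Ece1, the enzyme that activates endothelin, fell by 0.99 (SE 0.19, adjusted p = 0.0397), Tbx2 fell by 0.71 (SE 0.10, adjusted p = 0.0186) and the ligand Bmp7 by 0.69 (SE 0.08, adjusted p = 0.0131), each as the log2 difference. Edn1, the endothelin that induces Dlx5 and Dlx6, was at 0.11 with no call (adjusted p = 0.674).

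Of the other Dlx, Msx and Alx genes, 4 of 5 had a named probe and 0 passed the test (limma), with 1 at an unadjusted p under 0.05. This was Dlx3, an epidermal and arch gene, read at 121 and 173 in Salv CKO, against 99.3 and 67.5 in control (0.82 ± 0.32, adjusted p = 0.184). Alx1 was at 0.01 (adjusted p = 0.996). Dlx4 was below background in all pools, and Msx3 was read at 17.9 and 16.2 in Salv CKO, next to the limit, and below it in control.

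Dissected hearts can carry neighbouring tissue, and the same pools differed in genes of other cell types. Of 13 measured neural crest markers 8 rose and 0 fell, with a median of 1.12, which was 0.64 to 1.12 over the 4 scalings. Their summed intensity was 62498 and 62346 in Salv CKO, against 21695 and 21448 in control, most of it from the retinoid binding protein Crabp1. Without Crabp1 the sums were 15165 and 15013 in Salv CKO, against 8178 and 8186 in control. Sox10, a defining crest factor, was read at 1126 and 1141 in Salv CKO, against 189 and 192 in control, and Foxd3 was below background in all pools. Tfap2b, Pax3 and Crabp1 rose by 2.73 ± 0.26, 2.14 ± 0.28 and 1.82 ± 0.06. Erbb3 went the other way without a call, at 78.9 and 88.0 in Salv CKO, against 108 and 130 in control (-0.51 ± 0.24, adjusted p = 0.259). Ednrb was at -0.15 (adjusted p = 0.562). Twist1, a factor of crest and arch mesenchyme, rose by 0.75 ± 0.07 (adjusted p = 0.00946).

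Of 12 genes of limb and lateral plate mesenchyme, where Prrx and Msx genes are also active, 3 rose and 0 fell, with a median of 0.14. With the values as deposited the median was -0.29, and 0 rose and 1 fell. The risen genes were the receptor Pdgfra (0.86 ± 0.08), the zinc finger gene Sall4 (0.94 ± 0.14) and the homeobox gene Shox2 (0.46 ± 0.09). The sums over all 12 genes of the list were 10510.0 and 11126 in Salv CKO, against 8630.2 and 9065 in control. Tbx18 was read at 15.7 and 9.31 in Salv CKO, below the limit, and at 31.6 and 14.0 in control, above it in 1 pool. Its groups overlapped. Surface ectoderm and epithelium gave 3 of 10 that rose and 0 that fell, with a median of 1.10 (0.77 with the values as deposited). The keratin Krt8 went the other way without a call, at 2317.5 and 2495 in Salv CKO, against 3433 and 3003 in control (-0.42 ± 0.10, adjusted p = 0.0631). It was called lower under the other 3 scalings (adjusted p = 0.00635 to 0.0428) and without dim genes (adjusted p = 0.0337). Without dim genes 5 of the list were called higher. Among them were Cdh1 (0.66, adjusted p = 0.0327) and the keratin Krt18 (0.77, adjusted p = 0.0299), which had no call in the main fit. The keratin Krt14 rose by 1.40 ± 0.14, the splicing factor Esrp1 by 1.40 ± 0.12 and the claudin Cldn6 by 1.39 ± 0.15. Their list had sums of 10451 and 10536 in Salv CKO, against 7329 and 6663 in control, and Grhl2 below background in both control pools. Cushion and epicardial mesenchyme gave 4 of 12 that rose and 1 that fell, with a median of 0.53. With the values as deposited the median was 0.03, and 2 rose and 3 fell. The matrix proteins Postn and Dcn rose by 2.87 ± 0.36 and 1.48 ± 0.21, the mesothelial gene Upk3b by 0.58 ± 0.10, and the proteoglycan Vcan fell by 0.76 (SE 0.13). This list had sums of 14518 and 14411 in Salv CKO, against 12233 and 11784 in control, and Wt1 and Tcf21 below background in all pools.

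Forebrain genes, the other known setting of Dlx1, had 0 of 9 called by limma and 1 at an unadjusted p under 0.05. This was Otx2, a factor of fore- and midbrain (1.09 ± 0.26, adjusted p = 0.0635), followed by Nkx2-1, a factor of ventral forebrain, thyroid and lung (0.49 ± 0.23, adjusted p = 0.272). The median of the list was -0.27, and 0.02 for arrays divided by the 75th percentile. Otx2 was called higher for those arrays (adjusted p = 0.042), for median-centred arrays (adjusted p = 0.048) and without dim genes (adjusted p = 0.0231). The sums of the list were 1126 and 1158 in Salv CKO, against 1034 and 1318 in control. Gad1 and Emx1, a marker of inhibitory neurons and one of cortex, were below background in all pools. Heart muscle genes, the check of the labelled tissue, were above background in every pool for 13 of 13 measured. Of them 6 fell and 0 rose, with a median of -0.66 (-1.11 to -0.66 over the 4 scalings). The largest falls in this list were of the cardiac factor Nkx2-5 (-1.61 ± 0.21), titin (Ttn, -1.41 ± 0.09), the calcium pump inhibitor phospholamban (Pln, -1.36 ± 0.18) and Tnni1, a troponin I of the embryonic heart (-0.89 ± 0.07). Among the brightest genes of the list, Myh6 fell (-0.67 ± 0.07, adjusted p = 0.0121). Others gave no call: Myl7 was at 0.35, Actc1 at 0.05, Myl3 at 0.02 and Myl2 at -0.13. Actc1 was read at 63278 and 63279 in Salv CKO, against 58837 and 63271 in control, at the top of the scale, where a rise or a fall may not be seen. It was called higher for median-centred arrays and for arrays divided by the 75th percentile, where 1 gene of the list rose and 8 fell. The part of these cell types in the values of Dlx1, Msx2 and Prrx1 was not tested, and in pooled tissue fewer cells of a type and less RNA per cell cannot be told apart.

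**Figure D4:**
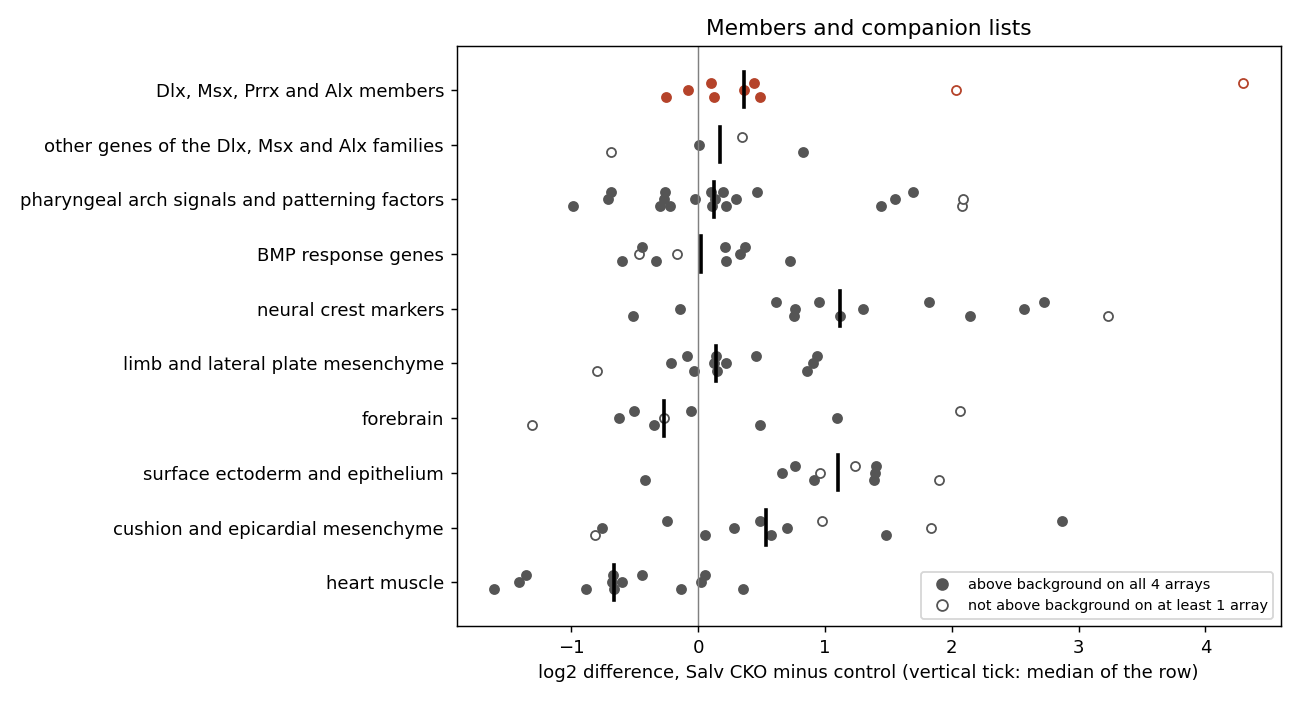
Log2 difference, Salv CKO minus control (x axis), of each measured gene of the 9 members (top row, red) and of 9 companion lists, with the median of each row as a vertical tick. The members above background lie between -0.26 and 0.49, the neural crest row has its median at 1.12 and the heart muscle row at -0.66.

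The average pattern of the 7 members above background, centred on each probe's mean, was 0.11 and 0.06 in the Salv CKO pools and -0.16 and -0.0049 in the control pools. Over these 4 arrays the nearest genes by Euclidean distance of log2 values were 2310022B05Rik, Rab5b, Tceal1, Tex261 and Rxrb, at 0.01 to 0.02. As many as 1081 of 12395 other genes lay within 0.2, so the likeness singles out no gene.

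Sav1 itself was read at 582 and 562 in Salv CKO, against 755 and 630 in control (difference -0.27 ± 0.13, adjusted p = 0.266). The position of its probe relative to the deleted part is unknown here, so the value does not check the labels. Median deposited intensities were 71.1 and 76.1 on the Salv CKO arrays and 77.5 and 101 on the control arrays. Pearson's r of log2 intensities over all probes was 0.947 within Salv CKO, 0.946 within control and 0.937 to 0.942 across. A dim probe does not show a silent gene: Hand2, a factor of the embryonic heart and arches named here after its values were seen, was read at 46.2 and 42.3 in Salv CKO and at 43.0 and 39.4 in control.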

How the data were processed

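Per the labels, total RNA of whole hearts was extracted with a column kit, amplified with amino-allyl nucleotides and coupled to Cy5. The deposited values are linear probe intensities on 4 one-colour arrays, and 3.37 to 5.99% lay below 0 per array, so the authors had subtracted a background. Scanner, software and scaling were not stated in the sources used here. Samples were grouped by their titles.

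The arrays were quantile normalised (limma 3.58.1, R 4.3.3), floored at an intensity of 1 and put on the log2 scale. The background limit of 16 compares with a noise SD per array, taken from the values below 0, of 4.36 to 6.28. Precision is limited by the number of arrays. The platform's table (2013) gave 1 symbol to 21020 probes and none to 8902. A gene was read by the probe with the highest mean log2 intensity. The test was limma (lmFit, then eBayes with trend; prior degrees of freedom 2.92), tested on simulated data. The other probes of a member came from a separate fit of the same kind over all 29922 probes, with its own adjustment. The bound for Dlx1 is the mean log2 intensity in Salv CKO minus that of the controls, with each control entered at the limit of 16. Of 13 alternatives, 4 leave out a pool.

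Named genes were the members, up to 4 called genes of each companion list with the largest difference (where none was called, the 2 of lowest p), Sav1 and the 5 genes nearest in pattern. Genes outside this rule, chosen after their values were seen, were Bmp7, Edn1, Alx1, Msx3, Foxd3, Erbb3, Ednrb, Tbx18, Grhl2, Wt1, Tcf21, Gad1, Emx1, Twist1, Krt8, Krt18, Cdh1, Myh6, Actc1, Myl2, Myl3, Myl7 and Hand2. The members and lists were chosen with earlier results of these data known, and the crest and muscle lists give no independent support. List symbols were matched to older names through RefSeq synonyms.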

Additional observations from a re-analysis of the deposited data

How the results depend on the processing

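The count of members called was 0 higher and 0 lower, and it depended on the setting. Dlx1 was called with the values as deposited (1 member, adjusted p = 0.0262), with arrays centred on the median (1, adjusted p = 0.0422), divided by the 75th percentile (1, adjusted p = 0.0397) or with a floor of 16 (1, adjusted p = 0.0309), which gives both controls the same value and so no spread. In the same order, 20%, 11.9%, 12.2% and 2.88% of all genes were called. Without genes of mean intensity at or under 16, Dlx1, Msx2 and Prrx1 were called (3; adjusted p = 0.0359, 0.0212 and 0.0493), beside 19.5% of the genes kept. Dlx1 met that filter only through its Salv CKO pools. No member was called lower under any of the 13 alternatives. Signs turned for Msx1 (-0.42 as deposited, -0.039 median centred, -0.0070 by 75th percentile), Msx2 (-0.027), Prrx1 (-0.035) and Prrx2 (-0.38) as deposited, and for Alx4 with the mean of its probes (0.19) and without control pool 2 (0.23). As deposited, the median gene above background was itself at -0.44. The cause of the other changes was not tested. Of 234 counts for companion lists, 92 lay outside 1.5 times the count given, 42 of 144 where limma called any gene.

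Over all genes 821 were higher and 951 lower. The counts were 229 and 3101 as deposited, 253 and 228 with a floor of 16, 257 and 234 with a floor of 64, and 1236 higher without dim genes. The higher share of calls was 46.3%, and 35.8%, 40.6% and 6.88% with arrays centred on the median, divided by the 75th percentile and as deposited. By limma 0 and 0 genes passed without an intensity trend (3578 at an unadjusted p under 0.05) and 0 to 0 with any 1 pool left out (3172 to 3438). With 1 pool left out, the lone pool of its group is assumed to vary like the others.

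Pool numbers 1 and 2 occur in both groups, but nothing says that they pair the samples. Deviations of the pools numbered 1 correlated at 0.17 over 12402 genes. With the pool number as a block, 2 members were called higher, Msx2 (adjusted p = 0.0245) and Prrx1 (adjusted p = 0.0425), beside 13.3% of all genes, on 1 residual degree of freedom.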
